A study of Homo sapiens with 6 samples.

Results

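Olfactory receptor (OR) genes were examined in 6mA-IP-seq libraries of MDA-MB-453 cells, a line derived from human breast cancer and long in use. N6-methyladenine (6mA) is adenine with an added methyl group on its amino nitrogen. In 6mA-IP-seq, fragmented genomic DNA is pulled down with a 6mA antibody and sequenced, and stretches with more fragments than the local background are called as peaks. OR genes were taken as the protein-coding genes on chromosomes 1 to 22 whose symbol is OR, a number, 1 or 2 letters and a number. This rule gave 398 genes of 20176 protein-coding genes in the GENCODE annotation of GRCh37. A further 17 protein-coding genes with OR-like symbols did not match the form, and 1 OR gene on the X chromosome was left out. A gene was counted as having a peak if a peak overlapped its body or the 5 kb on either side by at least 1 bp, and this stretch is called its window below. The comparison genes were the 5508 other protein-coding genes on the same chromosomes with a length of 933 to 15204 bp, the span from the 5th to the 95th percentile of OR gene length.

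Cells of the control group received a scramble siRNA, and cells of the si-N6AMT1 group an siRNA against N6AMT1, studied here as a candidate enzyme that writes 6mA. Both were given at 10 nM for 48 h. Each group had 2 immunoprecipitated libraries, described in the labels as biological replicates, and 1 input library, for which no file was used here. The transcript of N6AMT1 was not measured in these libraries, so the knockdown itself could not be checked from them. All samples came from 1 cell line, and the peak lists report DNA, not expression.

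OR genes encode G protein-coupled receptors that bind odorants in the sensory neurons of the nose. They form one of the largest gene families of mammals, lie in clusters on many chromosomes and usually carry the whole coding sequence in a single exon, with short noncoding exons upstream. Each neuron expresses one allele of one OR gene, while the other copies are kept in silent chromatin. Class I receptors, often called fish-like, belong to families 51, 52, 55 and 56, and class II receptors make up the other families. In cells outside the nose most OR genes are silent, which makes them a large set of tissue-restricted genes in AT-rich DNA.

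The 398 genes lay on 17 chromosomes and comprised 55 class I and 343 class II genes. Their median length was 1972.5 bp (912 to 202209 bp), against 7012 bp in the comparison genes. The longest gene bodies came from annotated exons far from the coding sequence, so that one OR gene can contain others. The windows of the OR genes covered 5.97 Mb and those of the comparison genes 81.5 Mb. Median GC content of the windows was 37.6% at OR genes and 50.8% at comparison genes, and OR coding sequence itself had a median of 46.6%. The windows of 147 OR genes overlapped the window of another OR gene, so that 1 peak could count for neighbouring genes, and distinct peaks per Mb of windows are given beside gene counts. OR4F29, OR4F16 and OR4F3 had identical coding sequences, and reads in them cannot be assigned to one copy.

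The DNA under the peaks is shown first, because the strongest OR regions had a visible sequence character. Each sequence is the 200 bp centred on the summit of the library with the highest -log10 q in the region, on the plus strand of GRCh37. Capitals mark runs of at least 20 purines or 20 pyrimidines, or at least 4 repeats of AC or of its complement GT. The first to be shown were taken from regions called in all 4 libraries: chr11:6196782-6196981 beside OR52B2, chr14:20217929-20218128 between the exons of OR4N2 and next to OR4Q3, and chr1:159418013-159418212 beside OR10J1. They show an AC repeat, a pair of CT-rich pyrimidine tracts and a window without a marked tract, in that order. The next is chr1:248131111-248131310 near OR2AK2, called in both control libraries alone, and then chr11:4979763-4979962 upstream of OR51A2, called in both si-N6AMT1 libraries alone. The last, chr1:248369146-248369345, lies in a noncoding exon of OR2M3.
OR52B2: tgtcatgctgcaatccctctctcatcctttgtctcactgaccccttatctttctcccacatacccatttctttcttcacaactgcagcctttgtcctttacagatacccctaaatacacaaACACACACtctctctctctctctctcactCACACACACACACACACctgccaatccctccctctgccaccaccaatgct
OR4Q3: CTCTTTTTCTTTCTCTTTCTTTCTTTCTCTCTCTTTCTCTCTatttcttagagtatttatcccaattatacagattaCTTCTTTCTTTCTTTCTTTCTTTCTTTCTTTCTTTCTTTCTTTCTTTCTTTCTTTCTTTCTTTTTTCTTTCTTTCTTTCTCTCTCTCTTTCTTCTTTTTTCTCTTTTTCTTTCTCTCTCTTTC
OR10J1: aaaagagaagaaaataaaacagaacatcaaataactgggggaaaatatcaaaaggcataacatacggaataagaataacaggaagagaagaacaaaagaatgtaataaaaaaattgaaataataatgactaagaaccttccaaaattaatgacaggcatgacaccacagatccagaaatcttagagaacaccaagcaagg
OR2AK2: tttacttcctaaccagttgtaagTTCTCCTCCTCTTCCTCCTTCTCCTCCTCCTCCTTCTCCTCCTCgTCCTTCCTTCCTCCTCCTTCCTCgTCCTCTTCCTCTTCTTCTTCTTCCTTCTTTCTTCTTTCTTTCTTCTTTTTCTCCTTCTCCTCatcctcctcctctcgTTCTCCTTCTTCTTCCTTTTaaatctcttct
OR51A2: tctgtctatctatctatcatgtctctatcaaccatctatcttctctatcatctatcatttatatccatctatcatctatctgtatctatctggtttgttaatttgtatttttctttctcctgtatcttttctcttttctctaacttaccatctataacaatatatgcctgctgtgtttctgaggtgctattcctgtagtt
OR2M3: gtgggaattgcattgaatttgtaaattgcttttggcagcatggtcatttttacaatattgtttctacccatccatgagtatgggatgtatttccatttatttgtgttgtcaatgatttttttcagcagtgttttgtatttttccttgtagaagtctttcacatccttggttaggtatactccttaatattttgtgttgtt

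A run of at least 20 purines or 20 pyrimidines, a measure chosen after these sequences had been seen, was present in 40.9% ± 6.16 (SD, n = 4 libraries) of the summit windows at OR genes. In windows 1000 bp to each side of the same summits the share was 7.07% ± 1.56. Over all autosomal peaks it was 39.3% ± 2.22 at summits and 4.90% ± 0.0814 beside them. The shares at OR and autosomal summits differed by less than the spread of the libraries. Runs of 8 A, read on both strands, stood in 30.7% ± 7.98 of OR summit windows and 11.2% ± 1.92 of their flanks, against 35.9% ± 2.15 and 12.5% ± 0.150 over the autosomes. At least 4 repeats of AC were found in 10.3% ± 3.14 of OR summit windows and 2.08% ± 0.745 of flanks, against 12.7% ± 1.48 and 2.74% ± 0.0300. The motif CAGGCTGG, on either strand, was found in 6.62% ± 1.60 of OR summit windows and in 6.12% ± 1.9 of the flanks. Its share over all autosomal summits was 9.53% ± 1.64, above the OR share in 3 libraries and below it in control replicate 2 (8.24% against 9% at OR genes). In the flanks of autosomal summits it was 8.13% ± 0.292, also above that in OR flanks. Some windows hold several of these motifs, and a match is a description of the letters only. Mean GC content of the summit windows at OR genes was 36.4% and 33.9% for the control libraries and 35.2% and 34.7% for the si-N6AMT1 libraries. At other autosomal peaks it was 38.2%, 37.8%, 38.2% and 37.9%. The OR windows were lower in 4 of 4 libraries, by -2.98 ± 0.853 percentage points (exact sign-flip permutation test over libraries, two-sided, p = 0.125, the smallest that 4 libraries allow).

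A peak was found at 61 and 81 OR genes in replicates 1 and 2 of control, and at 81 and 90 in those of si-N6AMT1. Values below keep this order of the libraries. These were 15.3%, 20.4%, 20.4% and 22.6% of the 398 genes. Among the comparison genes 13%, 13.6%, 16.6% and 17.2% had a peak in the same libraries. Most OR genes thus had no peak in any single library, and the share was above that of the comparison genes by 2.31, 6.74, 3.70 and 5.40 percentage points, a mean of 4.54 ± 1.94 (SD, n = 4). The difference was positive in 4 of 4 libraries (exact sign-flip permutation test, two-sided, p = 0.125, the smallest possible). Distinct peaks in OR windows numbered 68, 100, 99 and 108, which is 0.231%, 0.310%, 0.264% and 0.274% of the autosomal peaks.

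Per Mb of windows, OR genes held 11.4, 16.7, 16.6 and 18.1 peaks and comparison genes 8.59, 9.21, 11.8 and 11.7. The OR density was 1.33, 1.82, 1.41 and 1.54 times that of the comparison genes, a mean difference of 5.37 ± 2.05 peaks per Mb (4 of 4 libraries, exact sign-flip p = 0.125). Against the assembled autosomes as a whole, at 11, 12, 14 and 14.7 peaks per Mb, the ratio was smaller, at 1.04, 1.39, 1.19 and 1.23. The plot of shares and densities by gene set shows control replicate 1 as the lowest library at OR genes.

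**Figure D1:**
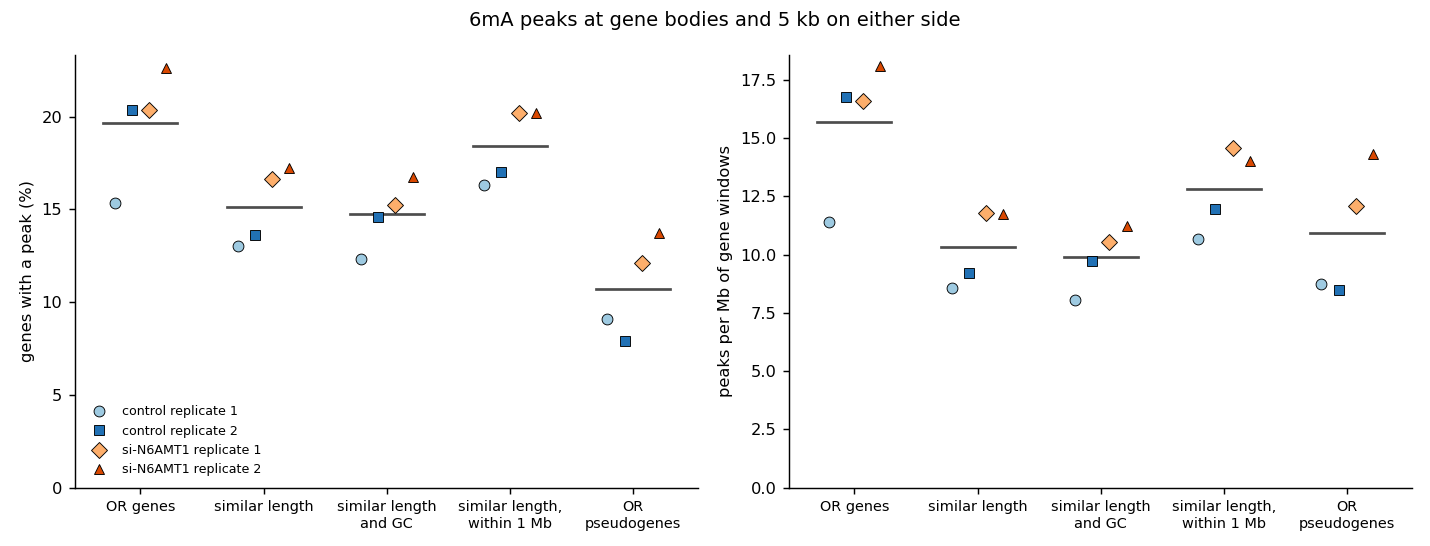
Share of genes with a peak (left, percent) and distinct peaks per Mb of gene windows (right) in each of the 4 libraries for OR genes, comparison genes and OR pseudogenes; points are libraries and grey lines their means. OR genes lie at 15.3% to 22.6% and 11.4 to 18.1 peaks per Mb, and control replicate 1 is their lowest library in both panels.

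The gap depended on the comparison genes and on the window. Against 1279 comparison genes whose window GC content also matched the OR range it was 4.92 percentage points and 5.80 peaks per Mb. Against 534 comparison genes within 1 Mb of an OR gene it fell to 1.22 percentage points (exact sign-flip p = 0.375) and 2.89 peaks per Mb (exact sign-flip p = 0.125). These neighbours themselves held 10.7, 12, 14.6 and 14 peaks per Mb. With the gene body alone and no flank, the difference in share was 0.487 percentage points (exact sign-flip p = 0.375), while that in density was 7.19 peaks per Mb. With 20-kb flanks the differences were 11.9 percentage points and 6.73 peaks per Mb. With the coding span in place of the gene body in both sets, a setting added after the data were seen, the share differed by 0.798 percentage points and was lower at OR genes in si-N6AMT1 replicate 1. Without the 20 OR genes longer than the comparison limit, also a setting added after the data were seen, the differences were 2.87 percentage points and 4.33 peaks per Mb. The density was higher at OR genes in every one of these settings. Within 5 bins of gene length, up to the comparison limit, the mean differences were 5.02 percentage points and 3.96 peaks per Mb. In the bin of 945 to 995.8 bp, with 80 OR and 28 comparison genes, OR genes were lower in each library. This held for share (12.5%, 13.8%, 15% and 15% against 17.9%, 17.9%, 21.4% and 21.4%) and for density. In the other bins OR genes were higher in each library. The shortest bin, however, held only 7 comparison genes, none of which had a peak in any library. The mean differences weight each bin by its OR genes, of which this bin held 71.

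Short and long OR genes had alike densities. The 188 genes under 1200 bp, annotated with little beyond the coding exon, held 15.8 ± 2.17 peaks per Mb, and the 210 longer genes held 15.7 ± 3.41. Across window GC content, the 121 OR genes between 36% and 38% had the most frequent peaks among the bins below 44%, in 26, 34, 36 and 37 genes. Among the 43 genes between 40% and 42% only 2, 4, 5 and 3 had a peak. Above 44%, 8, 6, 6 and 8 of 27 OR genes had a peak (29.6%, 22.2%, 22.2% and 29.6%), so the share did not fall steadily with GC content. In the comparison genes the bins of 36% to 38% and 40% to 42% were closer together. Peaks were found in 16.5%, 15.8%, 12.2% and 17.3% of genes in the lower and 12.2%, 15.7%, 17.7% and 18.6% in the higher. The OR share was below the comparison share in each library from 40% to 42% and from 42% to 44%. In the latter it was 0%, 7.14%, 0% and 0% of 14 OR genes, against 9.92%, 11.3%, 12.7% and 14.9%. Under 36% it was lower except in control replicate 2. From 36% to 38%, from 38% to 40% and above 44% it was higher in each library. Genes of one bin often share a cluster, so these are descriptions without a test.

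Of the 398 OR genes, 263 (66.1%) had no peak in any library, 49 had one in 1 library, 27 in 2, 26 in 3 and 33 (8.29%) in all 4. Of the comparison genes, 72.4% had none and 6.77% had a peak in all 4 libraries. The 33 genes with a peak in every library included OR10K1, OR10K2 and OR10R2 on chromosome 1, OR2D3 and OR56A5 on chromosome 11, and OR7G3 on chromosome 19. Neighbouring pairs such as OR10K1 and OR10R2 were called through a region that lay in both windows.

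No peak summit lay in the coding exon of an OR gene in any library. The coding exons made up 6.33% of the window length. They held 0 of 67, 0 of 95, 0 of 93 and 0 of 105 summits that lay within windows, which allows shares of up to 4.48%, 3.16%, 3.23% and 2.86% (3 counts of each total, counting error only). Each of these limits was below the 6.33% that length alone would give. The libraries came from the same cell line and shared regions, so the limits are not independent of each other. Peaks that lay mostly beside them reached into 2, 2, 1 and 1 coding exons and covered 0.0360%, 0.0273%, 0.0122% and 0.000265% of the coding bases. They covered 0.544%, 0.810%, 0.795% and 0.879% of the windows as a whole. Coverage of coding bases was lower than that of windows in 4 of 4 libraries (exact sign-flip permutation test, p = 0.125, the smallest possible), a comparison made after the values had been seen.

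The same direction was seen outside the family. In the comparison genes, coding exons made up 7.25% of the windows and held 12 of 673, 8 of 722, 10 of 918 and 9 of 927 summits, or 1.78%, 1.11%, 1.09% and 0.971%. In the windows of 430 OR pseudogenes, the gene bodies, which descend from former coding sequence, made up 8.91% of the length and held 0 of 39, 1 of 35, 0 of 49 and 1 of 63 summits. The share at OR coding exons was therefore below that of the comparison genes in each library, but the limit that a count of 0 allows was above the comparison share in each, and a difference between the sets was not detectable at this depth. Coding sequence of OR genes, with a median GC content of 46.6%, was richer in GC than the summit windows, at 33.9% to 36.4%, and the part of base composition in this result was not tested.

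**Figure D2:**
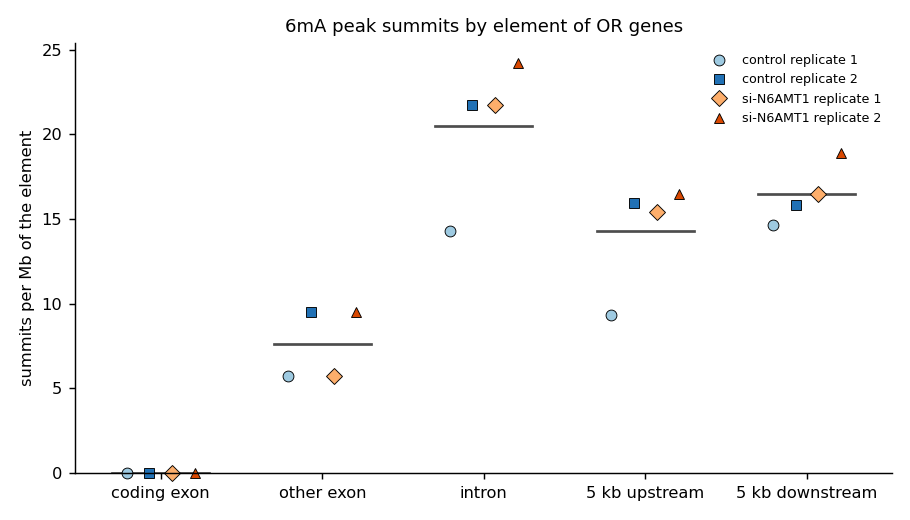
Peak summits per Mb of each element of the OR gene windows, with 1 point for each of the 4 libraries and a grey line at their mean. Coding exons are at 0 in all 4 libraries, other exons at 5.72 to 9.53, and introns at 14.3 to 24.2 summits per Mb.

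Summits were spread over introns and both flanks. Over the 4 libraries, 132 of 375 summits (35.2%) lay in introns of OR genes, which made up 27.0% of the windows, 104 lay within 5 kb upstream and 108 within 5 kb downstream. Noncoding exons, with 8.79% of the length, held 16 summits (4.27%), and 15 summits lay just outside the window that their peak touched. Per Mb, introns held 14.3, 21.7, 21.7 and 24.2 summits, upstream flanks 9.35, 16, 15.4 and 16.5, and downstream flanks 14.6, 15.9, 16.5 and 18.9. The intron values rested on OR4N2, a gene of 111239 bp whose window held 5, 12, 14 and 12 peaks. Without it, a choice made after the data were seen, introns held 11.9, 15.1, 13.8 and 17.8 summits per Mb, below the 15.2, 16.4, 17 and 20.7 of the downstream flanks in each library. The upstream and downstream densities overlapped between libraries. By distance, the first 1 kb after the coding start, which is almost all coding sequence in an OR gene, had 0 summits in each library, while the 1 kb before it had 4, 5, 3 and 4.

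**Figure D3:**
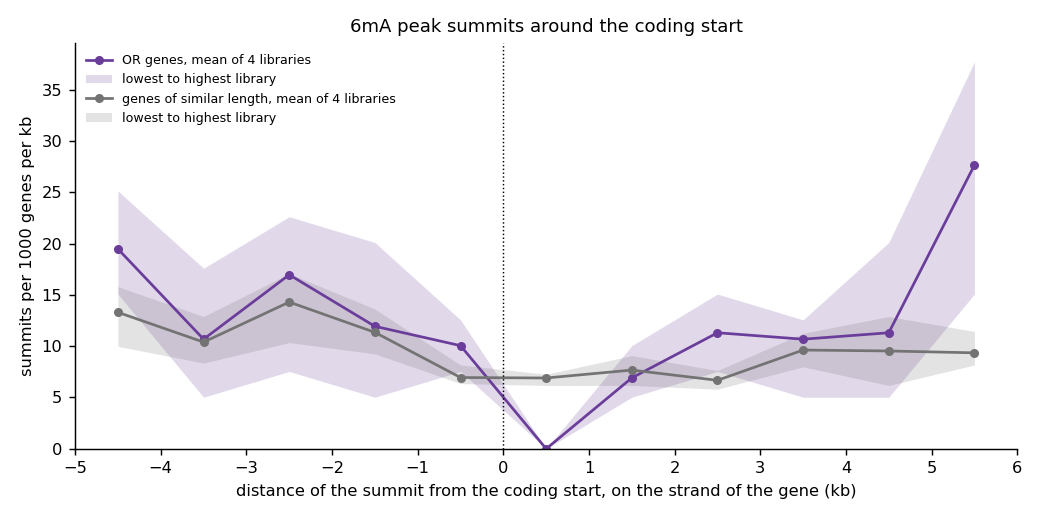
Peak summits per 1000 genes in bins of 1 kb by distance from the coding start, along the strand of the gene, for OR genes (purple) and comparison genes (grey); lines are means of the 4 libraries and shading runs from the lowest to the highest library. OR genes are at 0 in the first 1 kb after the coding start, which is mostly coding sequence in OR genes and less so in comparison genes, whose coding exons held 0.971% to 1.78% of summits in 7.25% of the window length.

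Class I genes had peaks more often than class II genes. A peak was found at 12, 17, 17 and 20 of the 55 class I genes (21.8%, 30.9%, 30.9% and 36.4%) and at 49, 64, 64 and 70 of the 343 class II genes (14.3%, 18.7%, 18.7% and 20.4%). The difference was 12 ± 3.45 percentage points and had the same direction in 4 of 4 libraries (exact sign-flip permutation test, p = 0.125, the smallest possible). Per Mb, class I windows held 16.7, 23.9, 27.5 and 26.3 peaks and class II windows 10.5, 15.6, 14.8 and 16.8. With the gene body alone the difference was 3.93 percentage points, and with 20-kb flanks 25.9.

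All class I genes lie in one cluster on chromosome 11, so class and place cannot be told apart over the whole family. The 12 class II genes in that cluster had a peak in 3, 1, 2 and 1 genes and 25.9, 12.9, 19.4 and 12.9 peaks per Mb. The 25 comparison genes within its span, which are not OR genes, held 23.5, 23.5, 23.5 and 20.5 peaks per Mb, values that overlapped those of the class I windows. By share, 16%, 16%, 24% and 16% of these 25 genes had a peak, below the class I share in each library. Among class I families, the 6 OR56 genes had a peak in 3, 2, 4 and 4 genes, the 22 OR51 genes in 5, 7, 6 and 7, and the 27 OR52 genes in 4, 8, 7 and 9. Among class II families of at least 20 genes, OR10 was the highest with a mean of 25.0% of its 38 genes and OR8 the lowest with 4.17% of its 24, in 0, 3, 1 and 0 genes.

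The clusters spanned a wide range of densities. OR genes separated by at most 1 Mb formed 38 clusters, of which 14 held 10 or more genes and 336 genes in all. Over its whole span, the cluster on chromosome 11 at 4388493 to 7963255, from OR52B4 to OR10A3 with 67 OR genes, had 26.3, 29.4, 35.2 and 33.0 peaks per Mb, on average 1.87 times the density of the chromosome. The cluster on chromosome 9 at 125239237 to 125563352, from OR1J1 to OR1K1, had 24.7, 27.8, 33.9 and 37.0 per Mb, which was 2.19 times. At the other end, the cluster on chromosome 11 at 123624288 to 124452838, from OR6X1 to OR8A1 with 22 genes, had 3.62, 6.03, 8.45 and 7.24 per Mb, or 0.383 times its chromosome. Peaks were found at 0, 3, 3 and 1 of its genes. The cluster at 55110677 to 56757318 on the same chromosome, from OR4A16 to OR5AK2 with 48 genes, was also low, at 0.697 times. Thus clusters of chromosome 11, with median window GC of 35.8% to 38.5% lay on both sides of the mean of the chromosome. The span was above its chromosome in 4 of 4 libraries in 7 clusters and below in 4 of 4 in 4 clusters. Spans hold other genes and intergenic DNA, and 2 libraries per group and overlapping windows leave these as descriptions.

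**Figure D4:**
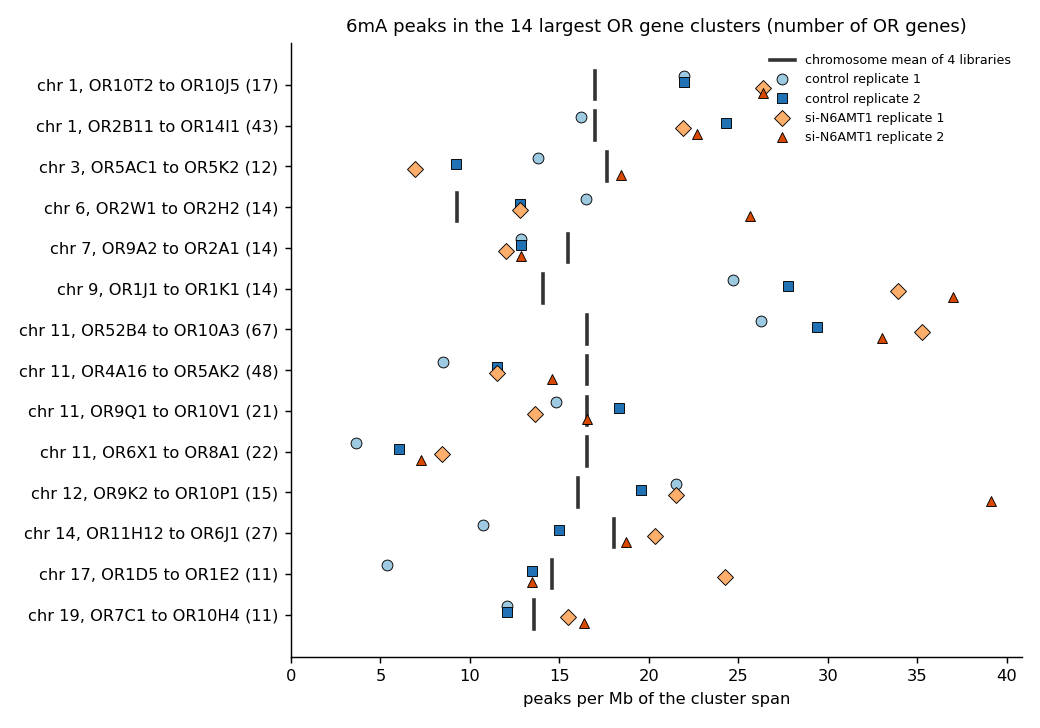
Peaks per Mb of the cluster span (horizontal axis) in the 4 libraries for the 14 OR clusters of 10 or more genes, with a dark bar at the chromosome mean of the 4 libraries; rows give the chromosome, the first and last OR gene and the number of OR genes. The span from OR52B4 to OR10A3 lies above its chromosome in all 4 libraries and that from OR6X1 to OR8A1 below it.

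By gene windows alone, the densest of the 14 clusters of 10 or more genes was that on chromosome 14, from OR11H12 to OR6J1 with 27 genes, at 21.5, 45.1, 43.0 and 43.0 peaks per Mb. Over its span of 3.74 Mb it did not stand above its chromosome, with a mean of 16.2 against 18.1 per Mb. Much of the density came from OR4N2, the OR gene with most regions. Its annotated body of 111239 bp also contains OR4Q3, and its window held 5, 12, 14 and 12 peaks in 19 regions. Without OR4N2 the cluster had 18.2, 31.2, 28.6 and 36.4 peaks per Mb and all OR genes together 11, 15.4, 15.3 and 17.3.

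OR pseudogenes gave a view of the same clusters without intact receptors. A peak was found at 39, 34, 52 and 59 of 430 pseudogenes, or 9.07%, 7.91%, 12.1% and 13.7%, below the share of OR genes in each library. Their windows held 8.73, 8.51, 12.1 and 14.3 peaks per Mb, also below OR genes in each library. Some pseudogenes lie among the OR genes, and their windows can overlap. How many lay within the OR clusters was not counted, so this is not a comparison within clusters. Other chemosensory receptor families are small. Among 24 TAS2R bitter taste receptor genes, 2, 2, 4 and 3 had a peak. These few genes held 6, 10, 9 and 9 peaks, which gave 12.2, 20.3, 18.2 and 18.2 peaks per Mb of all TAS2R windows. Of 4 vomeronasal VN1R genes, 1 had a peak in each library, and of 6 TAAR trace amine receptor genes, 1, 1, 0 and 1.

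The genes of the olfactory signalling pathway, a list of 21, are longer than the receptors, with a median of 31632 bp, and a peak was found at 10, 8, 12 and 11 of them. By density they held 9.46, 8.56, 12.2 and 12.6 peaks per Mb, near the comparison genes. The share with a peak among other genes of such length was not counted, so the gene counts are descriptions. The 7 with a peak in all 4 libraries were GNB1 (a G protein beta subunit), CNGB1 (a subunit of the olfactory cyclic nucleotide-gated channel), ANO2 (the calcium-activated chloride channel of olfactory cilia), SLC24A4 (a sodium, potassium and calcium exchanger), GRK3 (a kinase that desensitises receptors), EBF1 (a transcription factor) and ATF5 (a transcription factor of the receptor feedback signal). At GNB1, CNGB1 and SLC24A4 no single region was called in all 4 libraries, so different peaks made up the count. ANO2 had the most, with 8, 8, 9 and 9 peaks in a gene of 414364 bp. The 9 without a peak in any library included GNAL, which encodes the olfactory G protein alpha subunit, OMP, the olfactory marker protein, and RTP1 and RTP2, which carry receptors to the cell surface.

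Knockdown of N6AMT1 was compared with control at the level of the whole family. OR genes with a peak averaged 71 ± 14.1 in control and 85.5 ± 6.36 in si-N6AMT1 (SD, n = 2 each), a difference of 14.5 (exact permutation test, two-sided, over 6 ways of assigning the libraries, p = 0.667, with 0.333 as the smallest possible). Peaks at OR genes averaged 84 ± 22.6 and 103.5 ± 6.36 (difference 19.5, exact p = 0.667), and density 14.1 ± 3.79 and 17.3 ± 1.07 per Mb (difference 3.27, exact p = 0.667). The 2 control libraries, at 68 and 100 peaks, were farther apart than the group means, and control replicate 2 lay above si-N6AMT1 replicate 1. No difference beyond the spread of the replicates was detectable. Libraries also differed in depth and in the length of their peak lists. Relative depth was 1, 1.32, 1.38 and 1.5 and the lists held 30451, 33410, 38847 and 40844 peaks, both in the order of the OR gene counts except for the tie between the middle libraries. With equal numbers of peaks per library, OR genes with a peak numbered 61, 74, 67 and 68, a difference between group means of 0, and the peaks differed by 1. Without control replicate 1 the difference in peaks was 3.5 and without control replicate 2 it was 35.5.

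Overlapping peaks of the 4 libraries were merged into regions, of which 188 lay at OR genes. Of these, 4 (2.13%) were called in both control libraries and in neither si-N6AMT1 library, where 2.63% of all autosomal regions were. The opposite pattern held for 10 (5.32%), against 5.85% over the autosomes. All 4 libraries called 31 (16.5%), against 16.9%. The OR shares were thus near the background for each pattern. A further 87 regions (46.3%) were called in 1 library alone, against 49.4% over the autosomes. The counts rest on whether a peak passed the threshold of the caller and are not a test of signal. A summit lay inside another protein-coding gene in 28 of the 188 regions, and 19 regions belonged to at least 2 OR genes.

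The strength of the OR peaks was close to that of other autosomal peaks. Fold enrichment compares the fragments piled up at a summit with the background around it, adding 1 to both, and its median at OR genes was 7.28, 7.13, 6.72 and 6.37. At other autosomal peaks it was 7.41, 6.92, 6.93 and 6.64, a mean difference of -0.101 ± 0.212 with OR peaks higher in 1 of 4 libraries (exact sign-flip p = 0.375). Median width was 434, 452, 440 and 438.5 bp at OR genes, a mean difference of -4.13 ± 8.98 bp from other peaks (exact sign-flip p = 0.5). Median pileups were 17 to 19 fragments in both sets, so single calls rest on few fragments. The median local background at OR summits was 1.37 to 1.48 times the lowest of the library, against 1.19 to 1.25 at other peaks. Within the 31 regions called in every library, fold was higher in both control than in both si-N6AMT1 libraries in 7 (22.6%, autosomes 24.3%) and lower in 4 (12.9%, autosomes 16.9%).

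Ranked by their lowest within-list percentile of -log10 q, the highest regions called in all 4 libraries lay at OR52B2, OR5AP2, OR4Q3, OR5AU1 and OR10J1. The region that touched the window of OR52B2, a class I gene, had folds of 11 and 9.05 for control and 8.95 and 10.2 for si-N6AMT1, so the groups overlapped. Of its 4 peaks, those of si-N6AMT1 alone reached into the window, and OR52B2 itself was counted as having 0 peaks in both control libraries. The region holds the AC repeat shown above, and its summit lay 5326 bp upstream of the coding sequence. At OR5AP2 the region had folds of 10.9 and 10.1 for control and 12.1 and 9.20 for si-N6AMT1, again overlapping. The pyrimidine tracts next to OR4Q3, 1504 bp past its coding sequence, had folds of 8.79, 9.99, 8.58 and 8.81, the narrowest range of these 5.

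Regions at 2 of these genes were higher in both control libraries. The region downstream of OR5AU1 had folds of 12.2 and 8.70 for control and 8.10 and 8.12 for si-N6AMT1. At OR10J1, a class II receptor gene on chromosome 1, the folds were 13 and 10.7 for control and 9.17 and 7.20 for si-N6AMT1, and the region lay 7605 bp downstream of the coding sequence. Folds of one region depend on the depth of each library, and 2 libraries per group allow no p below 0.333 in an exact permutation test. In an intron of OR51B5, whose annotated body of 202209 bp also overlaps other protein-coding genes, the folds were 12.5 and 6.37 for control and 13.2 and 10.9 for si-N6AMT1, so control replicate 2 stood below the other 3 libraries.

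The next ranks were held by OR10R2, OR56B4, OR10H1, OR6J1, OR1B1 and OR2B3, with folds between 5.37 and 12.4. At OR10H1, the folds were 7.03 and 7.57 for control and 12.4 and 9.10 for si-N6AMT1, and the groups did not overlap. At OR2B3 they were 9.87 and 9.70 for control and 8.35 and 6.41 for si-N6AMT1, without overlap in the other direction. At OR1B1 the control values of 7.43 and 9.17 also lay above the 6.86 and 5.37 of si-N6AMT1. Among all autosomal regions called in the 4 libraries, 24.3% and 16.9% were separated in the control and si-N6AMT1 directions, as given above.

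**Figure D5:**
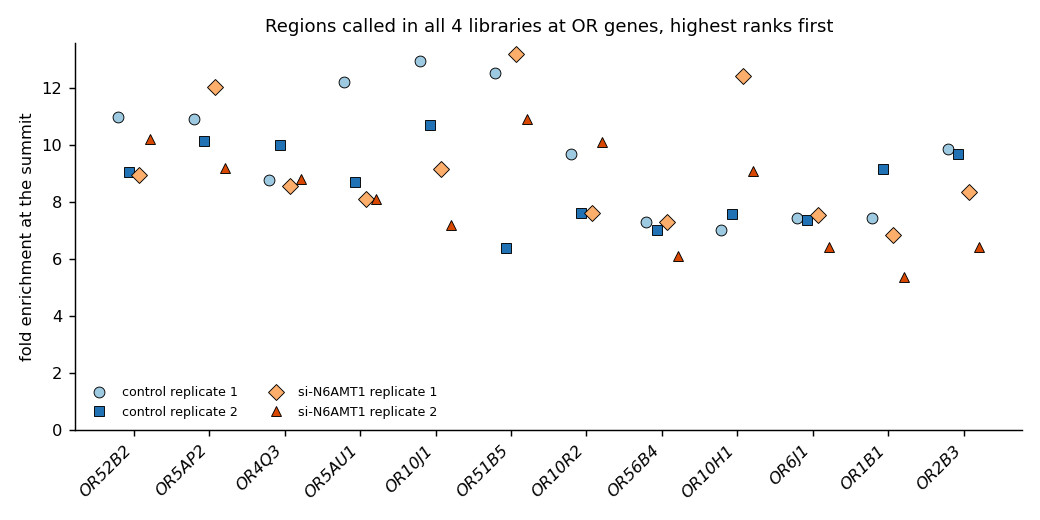
Fold enrichment at the summit (vertical axis) in each of the 4 libraries for the 12 OR regions of highest rank among those called in all 4 libraries, with genes from left to right by rank. Values run from 5.37 to 13.2; both control libraries lie above both si-N6AMT1 libraries at OR5AU1, OR10J1, OR1B1 and OR2B3, and below them at OR10H1.

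The 4 regions called in control alone lay at OR2AK2, OR51B5, OR14J1 and OR9Q1. At OR2AK2, in the pyrimidine-rich stretch shown above, folds were 7.48 and 5.64. At OR9Q1 they were 4.04 and 6.45, near the weak end of the list in replicate 1. Of the 10 regions called in si-N6AMT1 alone, the highest ranks were at OR51A2 (8.57 and 7.15), OR4N2 (7.73 and 7.05), OR10W1 (7.46 and 7.28), OR56A4 (5.80 and 6.22) and OR56A1 (6.66 and 5.52). The OR51A2 region lay 2920 bp upstream of its coding sequence, in a stretch that is also part of MMP26, a matrix metalloproteinase gene that spans several OR genes. OR51A2, OR56A4 and OR56A1 are class I genes of the dense cluster of chromosome 11.

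Of the 188 regions, 7 had their summit in a noncoding exon of an OR gene. Only that at OR2M3, 1941 bp past the coding sequence, was called in all 4 libraries, with folds of 4.98 and 8.55 for control and 7.22 and 6.64 for si-N6AMT1. An exon of OR10H1 held a region in 3 libraries with folds of 5.37 in control replicate 1 and 5.38 and 6.33 in si-N6AMT1. The region at OR5AS1 was called in control replicate 2 and si-N6AMT1 replicate 2, at 5.69 and 6.03.

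Receptors with a known ligand or known expression outside the nose were given by a list of 12. A peak was found at 2 of them and at none in all 4 libraries. OR51E2, a receptor known from prostate tissue, had 0, 1, 0 and 0 peaks. OR1D2, a receptor for bourgeonal studied in sperm, had 0, 1, 2 and 1. The other 10 had 0 peaks in every library. They were OR51E1, which is also expressed in prostate, OR2AT4, the sandalwood odorant receptor studied in skin cells, OR7D4, the receptor for androstenone, OR5AN1, a musk receptor, OR5A1, a receptor for beta-ionone, OR6A2, linked to the taste of coriander, OR2J3, OR11H7, OR2B6 and OR2T6. With 12 genes and 66.1% of all OR genes lacking a peak in any library, these counts describe single genes and were not tested as a group.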

How the data were processed

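6mA-IP-seq peak lists of 4 immunoprecipitated libraries were used. Per the labels and the methods of the study, the authors trimmed the reads, aligned them to hg19 with Bowtie2 2.3.5, processed them with SAMtools 1.9, removed duplicates and called peaks in each library with MACS2 at a p-value of 1e-05. Which input served each call is not given in the sources used here. The deposited score is 10 times the -log10 p, cut to a whole number. The deposited fold enrichment is a ratio of pileup to background with 1 added to each, which understates enrichment over a low background. The −log10 p and −log10 q that the authors deposited are those of the summit. Read totals were not used here. Whole-number pileups and their background were recovered from fold and -log10 p. For 99.98% to 99.99% of peaks the -log10 p computed from them matched the deposited value within 0.02. The lowest background divided by the smallest peak width gave relative depth.

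Groups came from the sample titles. Genes came from GENCODE 44 lifted to GRCh37, and sequence from its primary assembly, which stood for hg19 (0 peak ends fell beyond a chromosome). The peaks of all libraries that overlapped by 1 bp were merged into regions. Values per library were compared by an exact permutation test over 6 assignments (between groups) or an exact sign-flip permutation test over 4 libraries (between gene sets). Scripts, checked on simulated data, used Python 3.11.15 (numpy 2.4.6, pandas 2.3.3, scipy 1.17.1, pysam 0.24.0, matplotlib 3.10.9) and samtools 1.23.1. The named genes were those at the highest-ranked regions of each calling pattern or with a summit in an exon, the OR gene with most regions, 12 receptors and the signalling genes with a peak in all 4 libraries. The members and lists were chosen with earlier results of these data known. Summit sequences are shown for some of the named regions, and the others are not reported here. Other settings tried were a cut at a -log10 q of 5, peak lists shortened to the length of the smallest, flanks of 0 and 20 kb, summits in place of overlap, other comparison genes, the replicate number as a block, and each library left out in turn.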

Additional observations from a re-analysis of the deposited data

How the results depend on the processing

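Of 141 alternative values, 123 kept their direction, with tested values free to change in size and counts of regions within 1.5 times the reported count, 16 moved and 2 changed sign. None of the differences passed a threshold in any setting, since the designs allow no p below 0.125. Sizes changed most for the difference in peaks between groups (1 with lists of one length, 57 with 20-kb flanks) and for the share of OR minus comparison genes (0.487 to 11.9 percentage points). The difference in OR genes with a peak was 0 when all lists were cut to one length. The median width of OR peaks was above that of other peaks by 1.375 bp without flanks, and the median fold above by 0.0242 with coding spans, both within the spread of the libraries. Without flanks the OR regions of si-N6AMT1 alone numbered 4 and those of every library 16. With 20-kb flanks the counts were 14 for control alone, 32 for si-N6AMT1 alone and 65 for every library. With coding spans they were 2 for control alone and 5 for si-N6AMT1 alone, and without the longest OR genes 2 for control alone. The length of DNA searched differed between these settings, and its part in the counts was not tested. Leaving out each library gave 8 to 27 regions for control alone, 15 to 40 for si-N6AMT1 alone and 35 to 41 for every remaining library, since fewer libraries set the pattern. It gave differences between groups of 4.5 to 24.5 genes, 3.5 to 35.5 peaks and 0.586 to 5.95 peaks per Mb, lowest without control replicate 1 and highest without control replicate 2. With the replicate number as a block (replicate block), the differences were 14.5 genes, 19.5 peaks and 3.27 peaks per Mb, each with an exact sign-flip p of 0.5, the smallest possible. Deviations of same-numbered libraries had a correlation of 0.00653 over autosomal regions. This value cannot show whether these libraries shared a preparation. Median pileups of 17 to 19 fragments and 2 libraries per group limit what can be detected.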
